A study of Brassica rapa with 12 samples.

Results

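The 3 light-grown LP08 libraries were compared with the 3 light-grown Chiifu libraries, 6 of the 12 libraries of the series, over all 41018 Bra features of the count tables. Both groups were 1-week-old whole plants of *Brassica rapa* grown with 16 h of light and 8 h of dark. The other 6 libraries came from the same lines at the same age, kept in 24 h of dark, and serve here only as a second set of samples. Chiifu is a Chinese cabbage. The study's title speaks of vegetable and oilseed types of this species, so LP08 would be the oilseed type. No transgene, chemical treatment or batch is named in the labels. Nothing in them ties a replicate to a plant or culture of its own, and the p-values therefore rest on a spread between libraries that may be technical. Each line is a single genotype in whole-plant RNA, so a smaller organ or fewer cells of a type cannot be told apart from less RNA per cell.

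As background, *Brassica rapa* holds forms bred for leaves, for turnips and for seed oil. Its ancestor had its genome triplicated, so that many genes known from Arabidopsis are present as several copies. The glucosinolates named in the title are sulfur-rich defence compounds. Aliphatic ones are made from methionine and indolic ones from tryptophan, and myrosinase enzymes break them down when tissue is damaged. Seedlings in light open their cotyledons and build chloroplasts, whereas seedlings in the dark elongate and stay pale. The deposited tables give Bra IDs without gene names, and 1 ID, Bra000116 (synonym SWEET9; SWEET proteins carry sugars across membranes), could be named from RefSeq. It had 0 reads in the 6 light libraries. The results are therefore described by pattern, and 6 genes are given by ID without a role.

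Light Chiifu libraries held 70034296 ± 1543335 counts and light LP08 libraries 59402561 ± 3825453 (SD, n = 3 each). Reads of 36079 Bra features were found in at least 1 light library, and 31088 Bra features passed the filter on low counts. The filter used all 12 libraries, so 83 of those had no read in light. Levels are given as CPM, counts per 1000000 after TMM scaling, which corrects library totals for differences in composition. Mean correlations of a library with the other 2 of its line, across genes at 1 CPM or more, were 0.984 to 0.987 in Chiifu, 0.976 and 0.977 for LP08 replicates 1 and 2, and 0.960 for LP08 replicate 3.

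One library stood apart. In LP08 Light replicate 3, 355 of 24174 Bra genes with a mean of 1 CPM or more in LP08 were at least 4-fold below both other LP08 light libraries (0.5 CPM added), and 0 genes were as far above. The corresponding numbers below were 1 and 0 for LP08 replicates 1 and 2, and 8, 2 and 2 for Chiifu replicates 1, 2 and 3. The median level of the 355 genes was 0.93 CPM in LP08 Light replicate 3 against 15.3 and 16.5 CPM in replicates 1 and 2, a gap that chose the genes and is given as a description. They took 0.135% of the counts of that library and 1.29% and 1.33% of the others.

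The same 355 genes also varied among the Chiifu light libraries, which had no part in choosing them. Their median was 12.1 CPM in Chiifu Light replicate 1 and 25.1 and 23.3 CPM in replicates 2 and 3. Replicate 1 was the lowest Chiifu library for 88.7% of them, whereas it was the lowest for 36.8% of all 24969 genes at 1 CPM or more in Chiifu. In the dark their medians were 4.23 to 8.10 CPM in Chiifu and 14.4 to 27 CPM in LP08. Between the lines in light, 26 of the 355 were called higher in LP08 and 57 lower, together 23.4%. Of all tested features 46.4% were called. The 355 were chosen by a wide gap among the LP08 light libraries, which makes a lower share likely. Without LP08 Light replicate 3 the counts were 58 and 65, together 34.6%, against 39.4% of all tested features. What these genes are could not be looked up. Several of the results below, but not all, are also given without LP08 Light replicate 3.

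**Figure D1:**
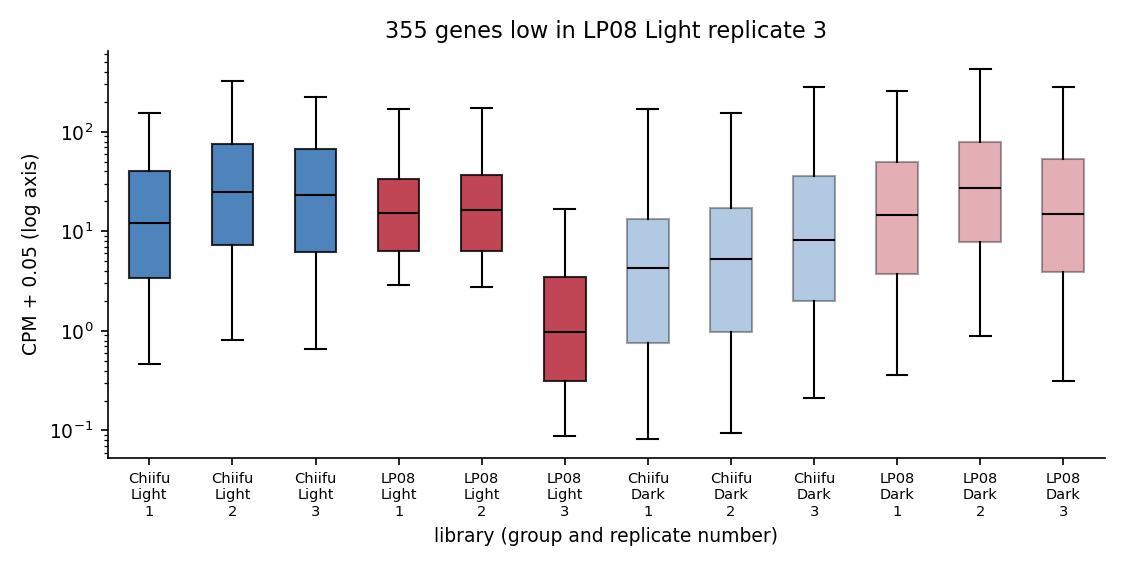
CPM of the 355 genes chosen for their low level in LP08 Light replicate 3, with 0.05 CPM added on a log axis, in each of the 12 libraries (box from 25th to 75th percentile, line at the median, whiskers at the 5th and 95th). LP08 Light replicate 3 has a median of 0.93 CPM against 15.3 and 16.5 CPM in the other LP08 light libraries, and Chiifu Light replicate 1, at 12.1 CPM, is below 25.1 and 23.3 CPM in the other Chiifu light libraries.

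The first question was how far the transcriptomes of the lines differed in light. In LP08, 6659 Bra genes were higher and 7791 lower than in Chiifu (edgeR, adjusted p under 0.05). Of all tested features 46.4% were called, 21.4% as higher and 25% as lower, and the median log2 fold change of the Bra genes was -0.01. The balance between directions depended on the scaling: 46.1% of the called Bra genes were higher with TMM, 50.2% with the size factors of DESeq2 and 32.6% when only the library totals were used, for which the median log2 fold change was -0.19. Lower genes were the larger group at 2-fold or more, with 3088 higher and 5140 lower (9.92% and 16.5% of all tested features). There the share of higher genes was 37.5%, and 40.0% and 29.9% with the other scalings. Without LP08 Light replicate 3 the counts at 2-fold or more were 2982 and 4869, and 93.8% of the higher and 92.2% of the lower genes were still called in that direction. The build was not given in the sources, and an unequal loss of reads of the lines before counting was not tested for these counts.

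Large differences were common, mainly among genes with few reads. At 8-fold or more, 1118 Bra genes were higher and 1901 lower, and 9.74% of all tested features were called at that size. By mean level in light, 26.3% of tested Bra genes under 1 CPM and 10.4% of those at 1 to 10 CPM were called at 8-fold or more. The shares were 2.23% at 10 to 100 CPM and 2.32% at 100 CPM or more. At 32-fold or more the counts were 674 and 1133, with 5.81% of all tested features. Higher genes made up 36.2% to 37.5% of the called genes at each minimum from 2-fold to 32-fold, and 36.5% to 38.0% without LP08 Light replicate 3. Fitted folds of genes with no read in a line depend on the prior count, and such genes are treated below by bounds.

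**Figure D2:**
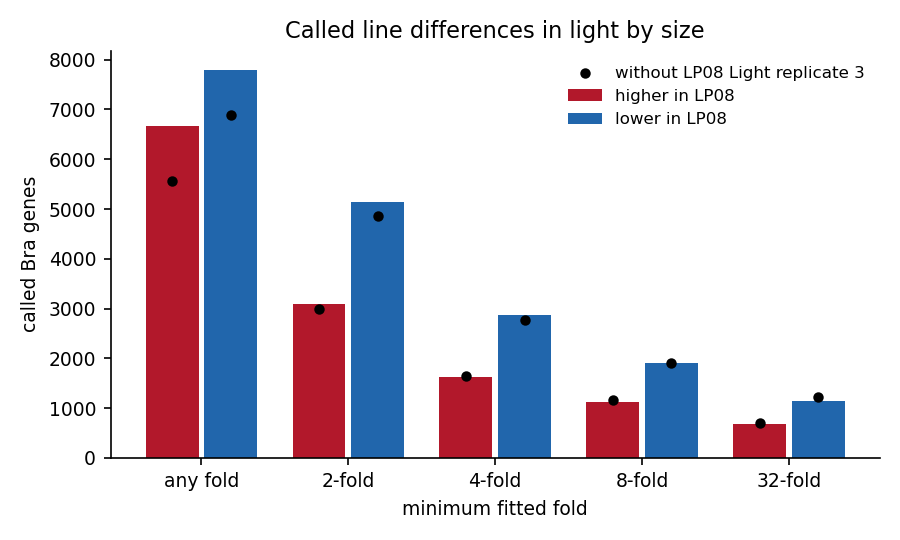
Number of called Bra genes (vertical axis) higher and lower in LP08 than in Chiifu in light, at each minimum fitted fold (horizontal axis). Bars are the fit of all 12 libraries and black points the fit without LP08 Light replicate 3. Lower genes outnumber higher ones at every minimum, with 5140 against 3088 at 2-fold.

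The lines held different parts of their reads in these genes. Genes called as higher in LP08 by 2-fold or more took 8.49 ± 0.22% of counts in light LP08 and 2.79 ± 0.14% in light Chiifu (SD, n = 3). Genes called as lower took 2.13 ± 0.27% in LP08 and 8.98 ± 1.0% in Chiifu. These shares describe the libraries on which the genes were chosen. In the dark libraries, which had a part in the spread and the filter but not in the contrast, the first set took 7.88 ± 0.44% in LP08 and 4.17 ± 0.40% in Chiifu, and the second 7.05 ± 0.43% and 10.6 ± 0.21%. The order of the lines was the same as in light for both sets, with a smaller gap. The median gene of the lower set was at 0.668 CPM in dark LP08 and 2.77 CPM in dark Chiifu, and that of the higher set at 3.65 and 0.73 CPM. Genes that were not called held 60.4 ± 0.43% of counts in light LP08 and 61.7 ± 0.59% in light Chiifu.

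The excess of lower genes was found at low and middle read numbers. Among 11291 Bra genes with a mean of 1 to 10 CPM in light, 1284 were higher and 2420 lower by 2-fold or more. Among 12321 genes of 10 to 100 CPM the counts were 675 and 993. Among 1641 genes of 100 CPM or more they were 114 and 81, so that there the higher genes were the more numerous. That order turned with library totals, to 87 higher and 101 lower, and held in the fit without LP08 Light replicate 3, with 105 and 76. CPM are not per length, so these classes rank genes by reads and not by transcript number. Calls of any size were about as frequent in each class, from 43.2% to 50.4%, while the median standard error of the log2 fold change fell from 0.64 under 1 CPM to 0.17 at 100 CPM or more.

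**Figure D3:**
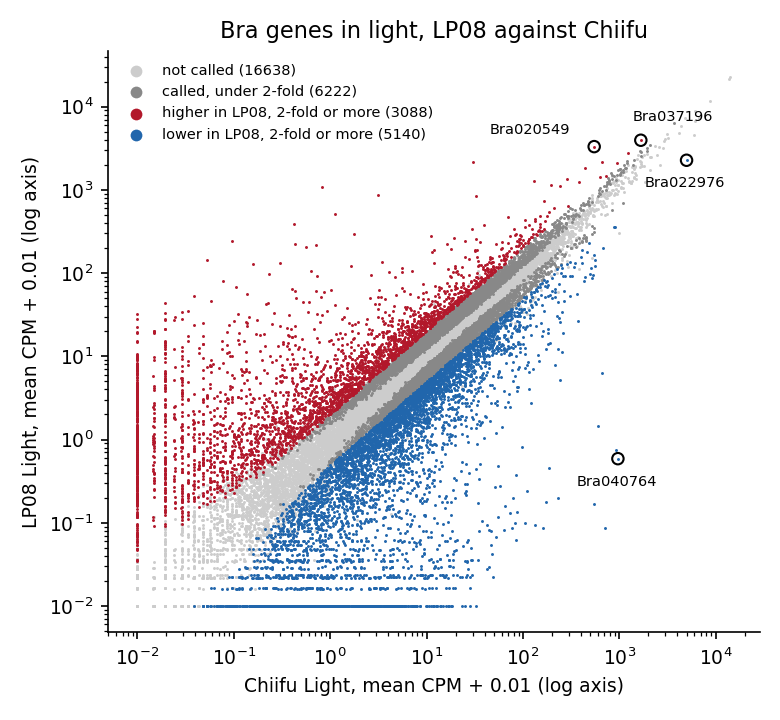
Mean TMM-scaled CPM of each tested Bra gene in light Chiifu (horizontal) and light LP08 (vertical), with 0.01 CPM added on log axes. Colours mark genes called as higher in LP08 by 2-fold or more (3088), lower (5140), called under 2-fold (6222) and not called (16638), and circles mark the 4 line-dependent genes given by ID.

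The genes given by ID were ranked by their difference of mean CPM among called genes of 2-fold or more whose light libraries did not overlap. Genes outside these limits, some with larger differences of CPM, were not ranked. Within the limits, Bra020549 came first among genes higher in LP08. It was at 2980, 3360 and 3600 CPM in light LP08 and at 559, 520 and 565 CPM in light Chiifu. All 3 LP08 libraries were far above all Chiifu ones, with a log2 fold change of 2.60 (SE 0.194, edgeR adjusted p = 6.5e-07), or 6.05-fold. The same gene took 0.295% of all counts in light LP08 and 0.0552% in light Chiifu. In the dark it was at 462 ± 112 CPM in LP08 and 196 ± 20.1 CPM in Chiifu (SD, n = 3, log2 fold change 1.20, SE 0.207, edgeR adjusted p = 0.00247 in the fit of the dark libraries).

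Bra037196 came second within these limits, with 3420, 3680 and 4740 CPM in the LP08 light libraries against 1910, 1500 and 1610 CPM in those of Chiifu. The groups did not overlap, and the highest value was that of LP08 Light replicate 3. The log2 fold change was 1.24 (SE 0.181, edgeR adjusted p = 0.000161), or 2.36-fold, 1.08 without that library, and 1.06 to 1.35 over the 16 alternatives. In the dark the order of the means was the opposite, 854 ± 89.1 CPM in LP08 and 1070 ± 141 CPM in Chiifu (SD, n = 3), and that difference did not pass the test (log2 fold change -0.36, SE 0.171, edgeR adjusted p = 0.123).

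Among genes lower in LP08, Bra022976 came first within the same limits, at 2070, 2100 and 2640 CPM in light LP08 and 5570, 4440 and 4950 CPM in light Chiifu. The lowest Chiifu library was well above the highest LP08 library. The log2 fold change was -1.13 (SE 0.205, edgeR adjusted p = 0.000774), so that LP08 was 2.19-fold lower. In the dark both lines had far fewer reads of this gene, and LP08 was the higher, at 39.7 ± 11 CPM against 18.9 ± 1.38 CPM in Chiifu (SD, n = 3, log2 fold change 1.04, SE 0.207, edgeR adjusted p = 0.00484).

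Bra040764, the second of the lower genes, differed by a far larger fold. It was at 969, 1070 and 858 CPM in light Chiifu and at 0.757, 0.429 and 0.550 CPM in light LP08. The 3 LP08 libraries held 91 reads of it in all, and the 3 Chiifu libraries 204492. The log2 fold change was -10.71 (SE 0.359, edgeR adjusted p = 1.72e-09), or 1670-fold lower in LP08. In the dark it was at 292 ± 53.7 CPM in Chiifu and 1.11 ± 0.406 CPM in LP08 (SD, n = 3, log2 fold change -8.07, SE 0.343, edgeR adjusted p = 4.76e-06). The 4 genes kept their direction and their call in all 16 alternatives. Loss of LP08 reads of Bra040764 before counting was not tested.

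**Figure D4:**
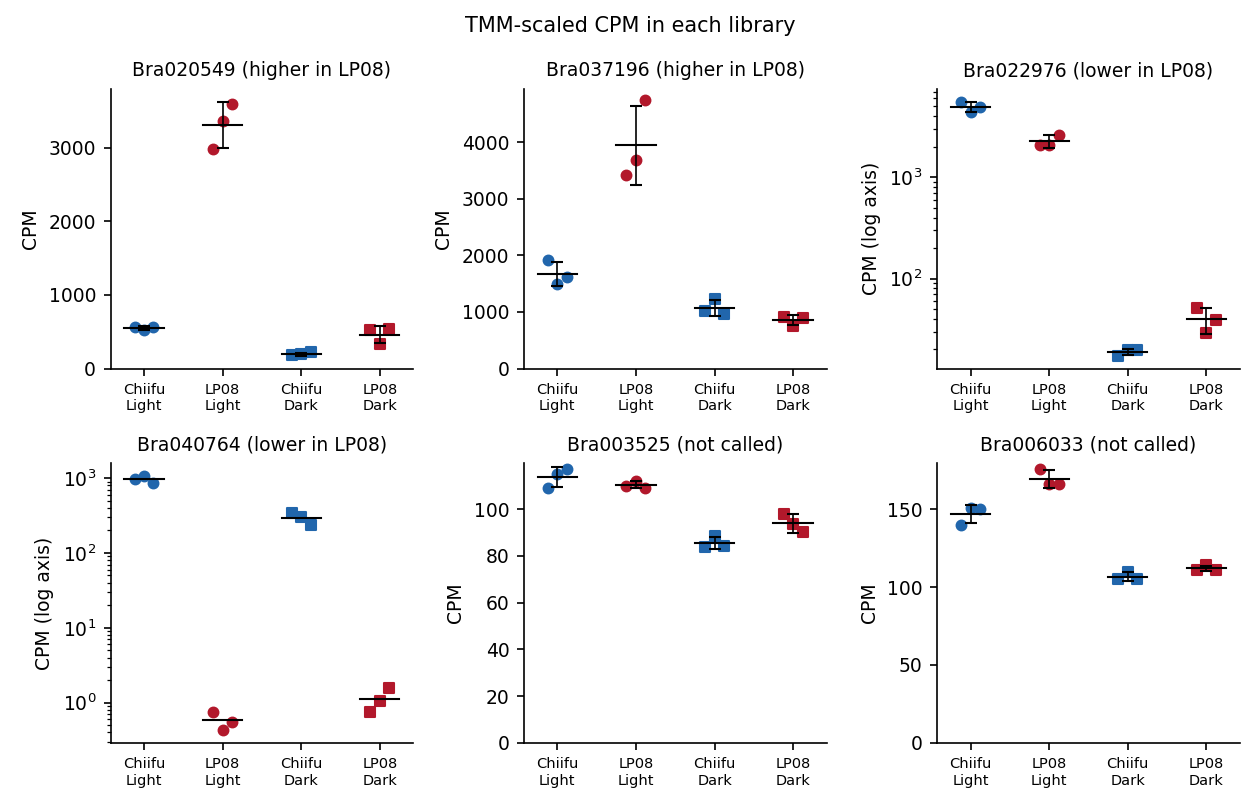
TMM-scaled CPM in each library for the 6 genes given by ID, by line and treatment (points are libraries, the line is the mean, bars are the SD except for Bra040764, which has none; Bra022976 and Bra040764 are on log axes, the others start at 0). Bra020549 lies between 2980 and 3600 CPM in light LP08 and at or under 565 CPM in every light Chiifu library, and Bra003525 lies between 109 and 117 CPM in all 6 light libraries.

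Not every gene differed, and for many the data set a narrow limit. The 95% interval of the fold lay within 2-fold in either direction for 14089 Bra genes, 45.3% of those tested, of which 3170 were called. Such genes numbered 13448 without LP08 Light replicate 3. Of the 16638 Bra genes that were not called, 65.6% had such an interval, and for the other 5719 a 2-fold difference was within the interval. The share with an interval within 2-fold was 3.07% of genes under 1 CPM, 38.2% of those at 1 to 10 CPM, 69.2% at 10 to 100 CPM and 64.7% at 100 CPM or more. Conversely, the whole interval lay beyond 2-fold for 1887 called genes that were higher in LP08 and 3228 that were lower.

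Among uncalled genes that averaged 100 CPM or more in light, Bra003525 had the narrowest interval, at 110, 112 and 109 CPM in light LP08 and 109, 115 and 117 CPM in light Chiifu. The groups overlapped, and the log2 fold change was -0.04, with a 95% interval of -0.24 to 0.16 (edgeR adjusted p = 0.733). Its sign depended on the scaling, with 0.01 under DESeq2 size factors. Bra006033, the next by the same rule, had 176, 166 and 166 CPM in LP08 libraries against 140, 151 and 150 CPM in Chiifu libraries. Its light libraries did not overlap, yet the log2 fold change of 0.20 (95% interval 0.00 to 0.41) did not pass the threshold (edgeR adjusted p = 0.0968), and it did with DESeq2 size factors (0.26, adjusted p = 0.0421) and in the DESeq2 test (0.26, adjusted p = 0.000253).

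Separation of the libraries was more frequent than a call. The 3 LP08 values lay all above the 3 Chiifu values for 9766 Bra genes and all below for 10339, and 64.6% of all tested features were separated in 1 of these ways. Of the 20105 separated Bra genes, 14228 were called, and 222 called Bra genes overlapped.

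Some genes had reads in 1 line only. In light, 120 Bra genes had at least 1 CPM in all 3 LP08 libraries and 0 reads in Chiifu, and 219 had at least 1 CPM in all 3 Chiifu libraries and 0 reads in LP08. All of them were tested and called, which the choice of such genes makes likely. Their levels were low: the median was 3.70 CPM in LP08 for the first set and 3.20 CPM in Chiifu for the second, and 9 and 21 genes reached 10 CPM. Against 3 counts over the 3 libraries of the line without reads, the 120 genes were at least 90.6-fold to at least 2290-fold higher in LP08, with a median bound of 261-fold. The 219 genes were at least 58.7-fold to at least 1710-fold lower, with a median bound of 170-fold. These bounds cover counting error only. Chiifu libraries were larger, so a count of 0 is a tighter limit there.

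The sets held 128 and 265 genes without LP08 Light replicate 3. The dark libraries had no part in choosing these genes. Of the 120 genes, 102 had at least 1 CPM in all 3 dark LP08 libraries, and the highest mean in dark Chiifu was 0.640 CPM. Of the 219, 163 had at least 1 CPM in all 3 dark Chiifu libraries. The highest mean in dark LP08 was 3.21 CPM, and 1 gene reached 1 CPM in all 3 dark LP08 libraries. No read was found in the dark libraries of the other line for 42 of the 120 and 109 of the 219. Why the other line had no reads of these genes in light was not tested. Among the possible causes, absence of a gene from a genome and loss of its reads before counting cannot be told apart in these files.

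The next question was whether line differences seen in light were also found in the dark. For this the 6 light libraries and the 6 dark libraries were fitted apart, with no library, mean or dispersion in common. In light alone 55.9% of tested features were called, and in dark alone 46.6%, with 21.4% higher and 25.2% lower in LP08. The fitted spread between libraries (common biological coefficient of variation) was 0.2 in light and 0.254 in the dark. The shares called are therefore not compared as sizes of the line effect. Leaving out each dark library in turn gave 4601 to 7691 higher and 5634 to 8514 lower Bra genes in the dark, against 6268 and 7353. Of 27986 Bra genes tested in both fits, 21.1% were called as higher in LP08 in the dark and 25.1% as lower. Of the 2600 genes called as higher by 2-fold or more in light, 65.6% were called as higher in the dark and 4.92% as lower. Of the 4299 called as lower by 2-fold or more, 64.2% were called as lower and 6% as higher. The light fit called 2919 higher and 5001 lower Bra genes at that size. Those not tested in the dark fit are left out of these shares.

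The larger the difference in light, the more often it was also called in the dark. Among genes higher in LP08 the share called in the same direction in the dark was 40.2% at any fold, 83.8% at 4-fold or more, 91.6% at 8-fold or more and 96.7% of 520 genes at 32-fold or more. Among lower genes it was 54.1%, 77.5%, 88.2% and 96.6% of 795 genes. A small difference is less likely to pass a test, so a missing call does not show that a difference was absent. The sign in the dark was the same for 71.8% of higher and 78.8% of lower genes at any fold. At 32-fold or more it was the same for 98.5% and 98.6%. At 32-fold or more the median log2 fold change of the higher genes was 8.03 in light and 7.53 in the dark, and that of the lower genes -8.42 and -8.14. Called differences of the opposite direction were found for 6 of 520 and 2 of 795. The light fit called 618 higher and 1009 lower Bra genes at that size. Those outside the 520 and 795 were not tested in the dark fit. Without LP08 Light replicate 3 the share called in the same direction was 68.4% of higher and 64.5% of lower genes at 2-fold or more, and 97% and 96.5% at 32-fold or more. Across the 27986 genes the log2 fold changes of the 2 fits had Pearson's r = 0.81 and Spearman's rho = 0.49, a description over genes that share libraries within each fit and are not independent.

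**Figure D5:**
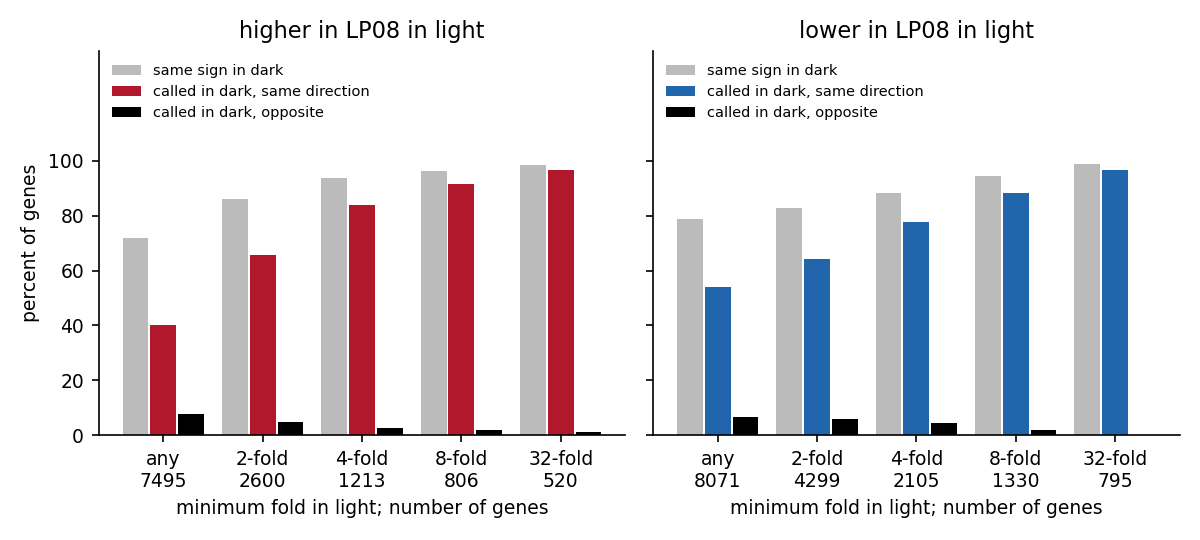
Percent of genes called in the fit of the 6 light libraries (vertical axis; left, higher in LP08; right, lower) that had the same sign in the separate fit of the 6 dark libraries, were called there in the same direction, or were called in the opposite direction, by minimum fold in light, with the number of genes under each. The share called in the same direction goes from 40.2% to 96.7% for higher genes and from 54.1% to 96.6% for lower genes. Only genes tested in both fits are counted.

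Calls in light and dark did not always coincide. Of the 12420 Bra genes tested in both fits and not called in light, 2380 (19.2%) were called as higher in LP08 in the dark and 2079 (16.7%) as lower, against 21.1% and 25.1% of all genes tested in both. The test of the difference itself, in the fit of all 12 libraries, called 29.2% of all tested features. It called 36.9% of the 3088 genes that were higher by 2-fold or more in light and 35.7% of the 5140 that were lower, and these genes were picked on the same light libraries. How many of those calls rest on a few reads against none was not tested.

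Neighbouring ID numbers showed the same direction somewhat more often than distant ones. The numbers are not taken as positions, since no table of the files' build was at hand. Of 24437 pairs of tested Bra genes with successive numbers, 336 were both higher by 2-fold or more and 879 both lower, together 4.97%. At a distance of 2 numbers the share was 4.32%, and at 10, 100 and 1000 numbers it was 4%, 3.74% and 3.86%. Pairs in opposite directions made up 3.25% of successive pairs and 3.13% of pairs 1000 numbers apart. A gene called as lower by 2-fold or more was followed by another such gene in 21.9% of pairs. Of all tested Bra genes 16.5% were lower by that much. A gene called as higher by 2-fold or more was followed by another such gene in 14.4%, where 9.93% were higher by that much. The log2 fold changes of successive pairs had Pearson's r = 0.09, a weak relation, and those of pairs 1000 numbers apart 0.01. Runs of at least 3 successive numbers called in the same direction at 2-fold or more numbered 31 for higher genes and 135 for lower genes. The longest held 4 and 7 genes. Lower genes were the more frequent, which by itself gives more runs, and runs were not compared with distant numbers. Without LP08 Light replicate 3 the share was 4.55% for successive pairs and 3.49% for pairs 1000 numbers apart. Shared reads between neighbouring copies were not tested.

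The libraries also differed in composition. Bra features with a read numbered 31629, 31868 and 31408 in light LP08 and 32719, 32783 and 32839 in light Chiifu, with every LP08 library below every Chiifu one. Features at 1 CPM or more numbered 23811, 23973 and 23313 in LP08 and 24748, 25136 and 24963 in Chiifu. The 100 features with most counts held 26.1 ± 1.94% of counts in LP08 and 21.9 ± 1.84% in Chiifu (SD, n = 3). For each of the 5 measures compared, these 3 and the shares of the 10 largest and of ENSRNA features, the lines did not overlap, and the exact two-sided permutation p was 0.1 (adjusted p = 0.1), the smallest that 3 against 3 libraries allow. The larger Chiifu totals move with the number of features with a read. The difference of means was -1150 (LP08 minus Chiifu), and -1050 when all light libraries were thinned to 55018405 counts, an alternative added after seeing the data. It was -1030 without LP08 Light replicate 3. An unequal loss of reads of the lines before counting was not tested for these measures either.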

How the data were processed

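RNA of whole *Brassica rapa* seedlings was sequenced from TruSeq Stranded mRNA libraries, per the labels' protocols. The deposited files hold raw read counts per feature, 1 table per library. Per the submitters' processing notes the tools were TopHat2, featureCounts, edgeR and FastQC, with no version or role stated. Build, annotation and strand setting were not given in the sources. All tables list the same 42186 features: 41018 have Bra IDs and 1168 have ENSRNA IDs. The latter held 1.15% of the reads of light Chiifu and 0.709% of those of light LP08.

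The counts were fitted with edgeR 4.0.16 in R 4.3.3. filterByExpr (minimum count 10, minimum total 15) left 31239 features, 31088 of them Bra. TMM (trimmed mean of M values) scaling was used. All 12 libraries entered 1 robust quasi-likelihood fit with a mean per group. A gene was called at a Benjamini-Hochberg adjusted p under 0.05 over all tested features. Standard errors and 95% intervals follow from the F statistic. The dark comparison used a fit of the 6 dark libraries alone, set beside a fit of the 6 light libraries alone. CPM (reads scaled to a common library size) refer to the TMM-scaled total, except for thresholds of reads against none and features at 1 CPM, which use the unscaled total. limma 3.58.1 and DESeq2 1.42.0 served as alternatives. The edgeR procedure was tested on simulated data.

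Genes given by ID were the 2 higher and 2 lower with the largest difference of mean CPM, among called genes of 2-fold or more whose light libraries did not overlap, and the 2 uncalled genes of at least 100 CPM with the narrowest interval. The comparison and these rules were chosen with earlier results of these data known. Of the 42186 IDs, 1 (Bra000116) was found in the RefSeq gene table of CAAS_Brap_v3.01, so lists of named Arabidopsis genes (glucosinolate synthesis, regulation and breakdown, photosynthesis, flavonoids, flowering, clock, seed, root) could not be joined and gave no result. Shared reads of near-identical, overlapping or antisense genes could not be checked.

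Light libraries held 55018405 to 71764062 counts. The limit that a count of 0 sets (3 counts) is 0.0418 to 0.0545 CPM of the unscaled total, for counting error only. Pairs of libraries of 1 line differed beyond counting noise (chi-square divided by its degrees of freedom 13.7 or more), so none was taken as a repeated library. Replicate numbers were not taken as pairs (correlations of deviations between same-numbered light libraries -0.36, 0.30 and -0.19).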

Additional observations from a re-analysis of the deposited data

Results flagged for a closer look

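The line effect differed between light and dark, by the edgeR test of the difference, for 9107 Bra genes and for each of the 4 line-dependent genes given by ID. Of all tested features 29.2% were called in that test. The difference (line effect in light minus line effect in dark, log2) was 1.36 for Bra020549 (SE 0.26, edgeR adjusted p = 0.00273) and 1.56 for Bra037196 (SE 0.254, edgeR adjusted p = 0.00107). It was -2.20 for Bra022976 (SE 0.291, edgeR adjusted p = 0.000309), whose sign was opposite in light and dark. It was -2.67 for Bra040764 (SE 0.374, edgeR adjusted p = 0.000448), which rested in LP08 on 91 reads in light and 173 in the dark. These genes were chosen on their light libraries.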

How the results depend on the processing

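Over 16 alternatives the counts of called genes stayed within 1.5 times their main value: 4609 to 8057 higher and 6281 to 9542 lower, and 2135 to 3381 and 3788 to 6033 at 2-fold or more. Leaving out 1 light library gave 5234 to 5757, 6505 to 7195, 2891 to 3067 and 4637 to 5107. The fit with the replicate number as a block (6 light libraries only) gave 6824 and 7878, and 2817 and 4774 at 2-fold or more, and in the dark its counts also stayed within 1.5 times. Deviations of same-numbered light libraries had no common sign (correlations -0.36, 0.30 and -0.19), so the block is not taken as a pairing. In the dark the correlations were 0.17, 0.12 and -0.17. Without LP08 Light replicate 3 and Chiifu Light replicate 1 together, chosen after seeing the data, the counts were 4780 and 6281.

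Genes with reads in LP08 only and in Chiifu only numbered 34 and 43 at 5 CPM or more. With up to 3 reads allowed in the other line they numbered 188 and 369, and at 0.5 CPM or more the Chiifu set held 331. Successive IDs called in the same direction made up 12.8% of pairs at any fold and 2.02% at 4-fold or more. Among genes with a mean of 1 CPM or more in light the share was 3.4% at 2-fold or more. Distant pairs were not counted at these settings, so an excess over them was not tested there. An interval within 1.5-fold was found for 5823 genes. The sign of Bra003525 turned with DESeq2 size factors and in the DESeq2 test (0.01 each, log2), and Bra006033 was called in both. With TMM-scaled totals, features at 1 CPM or more differed by -871 (LP08 minus Chiifu), against -1250. Of 233 alternative values, 221 met the criterion for their kind. Genes given by ID had to keep direction and call. Counts of genes and the share of successive pairs had to stay within 1.5 times. Composition measures had to keep their direction only. Depth limits the comparison most under 1 CPM, where the median standard error was 0.64.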
